A study of Citrus sinensis with 10 samples.

Results

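In sweet orange (Citrus sinensis) fruit, 100 of the 5856 cDNA clones on an array were chosen by their measured levels. Relative to the typical clone, after quantile normalization, their level was lower at 220 than at 120 days after flowering. This held in both Hong Anliu, a bud mutant, and Anliu, the wild type from which it arose. The clones were chosen by that difference. With no scaling between channels, 49 of the 100 were lower in both genotypes, and with levels set against printed controls 7 were. In 5 of the 100, many channels lay no higher than spots printed without cDNA, so their falls are not relied on. Clones whose mutant over wild-type ratio was 2-fold or more in the same direction on both arrays of any day were first dropped (2259 clones). Of the others, 3594 had a level at all days in both genotypes. They were ranked by the smaller of the mutant's and the wild type's fall, where a fall is the log2 level at 120 days minus that at 220 days, so that a positive fall means a lower level at 220 days. The 100 clones with the highest value were taken. Their falls and their lack of a 2-fold ratio are therefore given as descriptions, without a test. No file gives a clone's gene, and 0 of the 5856 clone names matched the RefSeq gene table of the sweet orange, so clones are named by plate, row and column, and no gene group could be described.

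As background, the period covered runs from fruit enlargement to ripeness. A sweet orange then stops expanding, loses chlorophyll, takes up sugars, lowers its acids and builds up carotenoids. Transcripts of photosynthesis and of cell growth are known to decline in citrus fruit over this period, while those of later carotenoid steps increase. A bud mutant is a changed shoot kept by grafting, so it shares nearly all of its genome with its wild type. Whether any of the 100 clones belongs to such a pathway is not known here.

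The mutant and the wild type were each sampled at 120, 150, 170, 190 and 220 days, which gives 10 RNA extracts. The extracts of a day shared 2 arrays, with the mutant in Cy5 and the wild type in Cy3 on replicate 1 and the dyes swapped on replicate 2. The labels name no tree, treatment or pooling. An extract has no biological replicate, so a difference between days covers both fruit development and the collection, and it shares the difference between the arrays of those days. Since both genotypes of a day lie on the same arrays, a fall seen in both cannot be told apart from a difference between arrays that acts on these spots. The number of arrays, 2 for each day, also limits the precision.

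Levels are log2 intensities, averaged over the 3 spots of a clone, quantile-normalized over the 20 channels (10 arrays with 2 dyes) and averaged over the 2 arrays of an extract. They are relative to the typical clone of the channel, whose level was set to be the same on all days. Before normalization the median clone intensity lay between 1034 and 3947 in the 10 mutant channels and between 2178 and 4565 in the 10 wild-type channels. Levels of different clones are not compared as amounts of RNA, since clone length and spot differ.

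Some members were not measured well in every channel. Of the 100 clones, 66 lay above a blank limit, the 95th percentile of the spots printed without cDNA, in all 20 channels, and 29 did so in 19. The remaining 5 did so in 13 or fewer, and they include the clones of rank 1, 2 and 3. In all 29 the channel below was the wild type on replicate 1 of 220 days, where that limit was 822, against 4 to 215 in the other 19 channels. That channel enters the wild-type fall, and these 29 are kept in what follows. Falls of the 66 alone are not given here. The clone of rank 1, 61.H.5, had a mean spot intensity of 4321 in the mutant on replicate 2 of 120 days but 0.333 on replicate 1. It was also below the blank limit in both dyes on replicate 1 of 150 days and on both arrays of 220 days, and between 5769 and 8573 in the mutant on the 4 arrays of 170 and 190 days. Its 3 spots thus held no signal above blank in either dye on 4 arrays, and its fall is not a measured difference between 120 and 220 days. The clone of rank 2, 42.H.1, had mean spot intensities of 73.0 and 1326 in the mutant, against 366 and 499 in the wild type at 120 days. On the arrays of the later days it stayed at or below 124 in both genotypes. The others were 57.F.3, 56.F.2 and 41.D.12. No fold or fitted change is given for these 5, and the counts they move are also given for the other 95.

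In the 95 members with signal, the mutant's median level over 120, 150, 170, 190 and 220 days was 11.54, 10.67, 11.13, 10.18 and 10.12. That of the wild type was 11.79, 11.42, 10.92, 10.65 and 10.30. The median over all clones was between 11.42 and 11.45 in every extract, as normalization sets it. The members therefore lay slightly above the typical clone at 120 days and more than 1 log2 unit below it at 220 days in both genotypes. The mutant's median did not decline at each step, as it was higher at 170 than at 150 days, while the wild type's was lower at each later day.

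**Figure D1:**
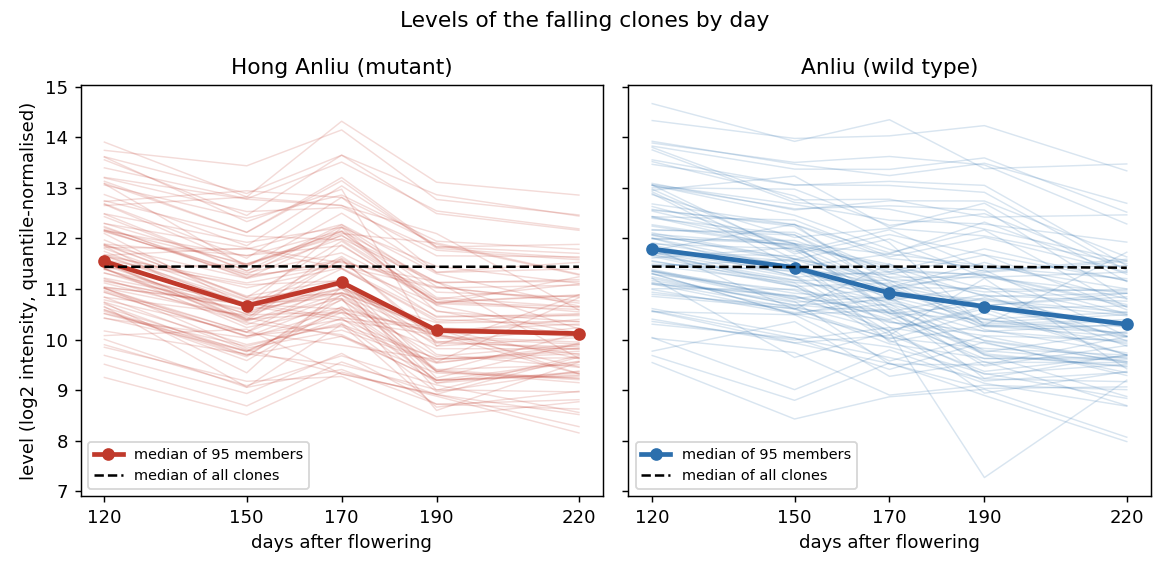
Level (log2 intensity, quantile-normalised) against days after flowering for the 95 members with signal, the mutant on the left and the wild type on the right. Thin lines are clones, the thick line is their median and the dashed line the median of all clones; the mutant's median goes 11.54, 10.67, 11.13, 10.18 and 10.12, and the wild type's 11.79, 11.42, 10.92, 10.65 and 10.30. The thin wild-type line that dips to 7.27 at 190 days is clone 13.B.12.

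On the quantile scale the fall of these 95 clones was of similar size in both genotypes. The ratio filter and the ranking by the smaller fall favour this. The median fall was 1.27 in the mutant, with a range from 0.999 to 2.72, and 1.37 in the wild type, with a range from 0.994 to 2.72. With no scaling between channels the median fall of the 100 members was -0.0033 in the mutant, against 2.14 in the wild type. The smaller fall was 2 or more in 3 of them, between 1.5 and 2 in 14 and under 1.5 in 78. Taken by dye orientation over all 100, the median fall was 1.31 and 1.26 in the mutant, against 1.54 and 1.36 in the wild type on replicates 1 and 2. All 100 had a positive fall in both genotypes on each replicate, which the choice of the clones favours. Of the 95 with signal, 35 had the larger fall in the mutant, against 60 in the wild type. Which genotype had the larger fall depends on the scale. With channels scaled to the same median, the median of the 100 was 1.52 in the mutant, against 1.31 in the wild type. The wild-type fall of 29 members also includes the channel of 220 days in which they were below the blank limit. The falls lay within 0.5 of each other in 75 of the 95. The mutant's was larger by 0.5 or more in 5 and the wild type's in 15, against 9 and 16 with the 5 dim members. Over all clones with levels the median fall was 0.16 in the mutant, against -0.07 in the wild type.

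The limit of the rule lies within a dense part of the ranking. The members of rank 96 to 100 were 22.F.3, 28.G.9, 7.B.2, 30.F.5 and 51.A.4, with a smaller fall between 1.004 and 0.994. The clones just outside were 13.B.2, 57.H.8, 42.H.12, 48.G.2 and 46.D.7, with 0.988 to 0.985. Of these, 48.G.2 had a fall of 0.99 in the mutant, against 1.54 in the wild type.

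**Figure D2:**
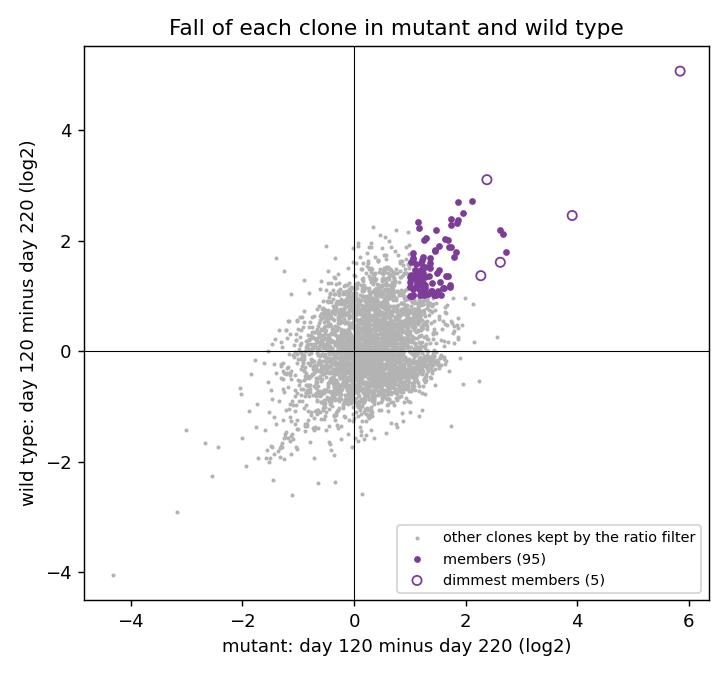
Fall of each clone in the mutant (horizontal axis) and in the wild type (vertical axis), both as the log2 level at 120 days minus that at 220 days. Filled points are the 95 members with signal, open circles the 5 dimmest members and grey points the other clones kept after the ratio filter; the filled points begin at a fall of about 1 on both axes, as the rule sets, and reach 2.72.

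Clones 15.G.11 and 29.F.2 were the only members whose level was lower at every later day in both genotypes, and they had the highest smaller fall of the members with signal. The level of 15.G.11 in the mutant was 13.21, 12.77, 12.65, 12.09 and 10.58 over the 5 days, and in the wild type 13.75, 12.71, 12.58, 12.18 and 11.56. Its fall in the mutant was 2.70 and 2.54 on the 2 replicates, and 2.30 and 2.08 in the wild type. The level of 29.F.2 in the mutant was 12.29, 11.81, 11.52, 11.14 and 9.63, and in the wild type 12.63, 11.90, 11.39, 11.27 and 10.51. In both clones the mutant's largest drop came after 190 days, and at 220 days the mutant lay below the wild type by about 1 log2 unit or slightly less, while the 2 genotypes were close from 150 to 190 days.

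Clones 51.E.8, 46.G.8, 44.G.7, 51.F.8 and 59.C.8, of rank 6 to 10, had another course: at 190 days they were at, or within 0.02 of, their lowest level. Clone 51.E.8 had 11.80, 10.79, 11.07, 8.999 and 9.68 in the mutant over the 5 days, and 12.42, 11.78, 10.60, 9.23 and 9.70 in the wild type. Clone 51.F.8 had 11.41, 10.39, 10.81, 8.60 and 9.55 in the mutant, and 12.07, 11.55, 10.25, 8.94 and 9.37 in the wild type. In both clones the mutant exceeded the wild type at 170 days and lay below it at 120, 150 and 190 days. Clone 46.G.8 had 11.52, 10.40, 10.52, 9.20 and 9.57 in the mutant, and 12.002, 11.25, 10.15, 9.31 and 9.51 in the wild type. Clone 44.G.7 had 11.20, 10.33, 10.10, 9.19 and 9.33 in the mutant, and 11.72, 11.07, 9.98, 9.18 and 9.35 in the wild type. Clone 59.C.8 had 11.40, 10.36, 11.01, 9.15 and 9.56 in the mutant, and 11.87, 11.26, 10.46, 9.55 and 9.54 in the wild type. From 190 to 220 days the level became higher in these 5 clones in both genotypes, except for 59.C.8 in the wild type, where it was 9.55 at 190 days and 9.54 at 220 days. Each of these 5 was below the blank limit only in the wild-type channel of 220 days named above.

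The members with the largest difference between the genotypes' falls stand at the edges of the plot of falls. Among those with signal, clone 28.E.1 had a fall of 1.14 in the mutant, against 2.33 in the wild type. It was below the blank limit in the wild type on replicate 1 of 220 days, where its fall was 2.75, and above it on replicate 2, where the fall was 1.92. For clone 59.A.8 it was 1.16 in the mutant, against 2.24 in the wild type. Clone 51.F.8, below the limit in the same channel, had 1.86 in the mutant, against 2.70 in the wild type. In the other direction clone 2.B.12 had a fall of 2.72 in the mutant, against 1.79 in the wild type. Its level was 13.61, 12.33, 12.97, 9.87 and 10.89 in the mutant over the 5 days, and 13.52, 12.84, 11.91, 10.28 and 11.73 in the wild type. The brightest members were 51.A.4, 54.C.1 and 43.A.4, with mean levels of 13.69, 13.63 and 13.21. Their falls were 1.05, 1.28 and 1.17 in the mutant, against 0.99, 1.19 and 1.31 in the wild type.

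The interval of the largest drop was often not the same in both genotypes, a difference that was not tested. In the mutant the largest drop between neighbouring days came between 170 and 190 days for 64 of the 100 members, between 120 and 150 days for 27, between 190 and 220 days for 7 and between 150 and 170 days for 2. In the wild type the 4 intervals in time order held 22, 29, 20 and 29 members. The intervals are 30, 20, 20 and 30 days long. Of the 3594 clones kept by the ratio filter, the interval from 170 to 190 days held 30.7% in the mutant, against 21% in the wild type. Counted per day, it held 78 members in the mutant, against 28 in the wild type, and of the kept clones 39.5% in the mutant, against 24.3% in the wild type. These counts depend on which genotype is which at 170 days, where an exchange was considered, as given below. With the genotypes exchanged at that day, the intervals in time order held 45, 6, 41 and 8 members in the mutant, against 19, 12, 36 and 33 in the wild type. Counted per day, the interval from 170 to 190 days then held 59 members in the mutant, against 45 in the wild type. As labelled, the largest drop fell in the same interval in both genotypes in 33 members, of which 19 were at 170 to 190 days. Without the 5 dim members these were 29 and 18. No share of the kept clones is given here for the same interval or for the exchange. These counts are therefore not read as particular to the members. The level was lower at every later day in 6 members in the mutant, in 19 in the wild type and in 2 in both. Of the 5852 clones with a level in all 10 extracts, 110 did so in the mutant, 135 in the wild type and 5 in both. The choice of the members by their fall favours such a course, and no share of the kept clones is given.

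Step by step, the median change of the 95 members in the mutant was -0.84 from 120 to 150 days, 0.49 from 150 to 170 days, -0.998 from 170 to 190 days and -0.08 from 190 to 220 days. The wild type's steps were -0.47, -0.38, -0.27 and -0.31. Between 120 and 150 days 93 of all 100 members were lower at the later day in each genotype. Between 150 and 170 days 18 were lower in the mutant, against 69 in the wild type, and between 170 and 190 days 97 in the mutant, against 69 in the wild type. The kept clones moved in the same directions between 120 and 190 days in the mutant: 67% were lower at the end of the first interval, 38.5% of the second and 63.6% of the third. In the wild type 57.2%, 62.3% and 46.9% were. With the genotypes exchanged at 170 days, 40 members were lower between 150 and 170 days in the mutant, against 57 in the wild type, and between 170 and 190 days 89 in the mutant, against 88 in the wild type. These steps share the day between them, so a high value at 170 days lowers the next step.

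An exchange of the genotypes at 170 days was considered because of the ratios of that day. The dye headers of all 10 arrays name the genotypes as the labels do. Across 5849 clones, which are not independent replicates, the mutant over wild-type ratios at 170 days correlated at -0.31 with those at 150 days, at -0.27 with those at 190 days and at -0.51 with those at 220 days, and at 0.20 with those at 120 days. The ratios at 220 and 120 days also correlated negatively, at -0.38. The other pairs of days lay between 0.13 and 0.66. An exchange at 170 days would turn the sign of each correlation of that day, of the negative ones and of the positive one alike. With the genotypes exchanged there, the median step of the 100 members in the mutant was -0.85, 0.28, -0.76 and -0.08. In the wild type it was -0.47, -0.11, -0.46 and -0.31. The number lower at every later day was then 11 in the mutant, against 25 in the wild type. Counts after the exchange are given for the members only. As labelled, the medians of all 100 members between 150 and 170 days were 0.47 in the mutant, against -0.38 in the wild type. Whether an exchange took place was not tested and cannot be told from these values.

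Levels at the days between the end points did not enter the ranking, although the ratios of those days entered the filter, so a change common to both genotypes over these days could be tested. A line over 150, 170 and 190 days was fitted in limma to the 6 extracts for 5853 clones, with the genotype as a term and the shared arrays of a day as a random block. Its value is the fitted log2 change from 150 to 190 days. No member passed: 0 of 100 members were lower and 0 higher at an adjusted p under 0.05 in limma (Benjamini-Hochberg), where 1 of all clones, or 0.0171%, was lower and 0% higher. At an unadjusted p under 0.05 in limma, 37 of the 100 members were lower, against 5.13% of all clones, and 3 were higher, against 4.53% of all clones. Among the 3594 clones kept by the ratio filter, 6.46% were lower and 4.84% higher at that unadjusted p. The count of members was 35 without the 5 dimmest. The median fitted change of the 100 members was -0.57, against -0.02 for all clones, and 85 of 100 were negative, against 52.2% of all clones. The smallest adjusted p of a member in limma was 0.315.

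Both genotypes contributed to this change. The median difference of 190 minus 150 days was -0.46 in the mutant, with 88 of 100 members lower, and -0.61 in the wild type, with 82 lower. In 81 members both genotypes were lower at 190 days, against 32.6% of all clones. The largest negative changes were those of clones 2.B.12, -2.51 (SE 0.60), 51.F.8, -2.20 (SE 0.44), and 51.E.8, -2.17 (SE 0.41), with an adjusted p in limma of 0.431, 0.323 and 0.323 over 6 extracts. Next came 41.D.12 and 56.F.2, which belong to the dimmest. The clones 46.G.8 and 44.G.7 had -1.57 (SE 0.31) and -1.52 (SE 0.26). For 15.G.11 and 29.F.2 the change was smaller, -0.60 (SE 0.24) and -0.65 (SE 0.23). Positive changes at an unadjusted p under 0.05 were found in 3 members, 61.H.5, 57.F.3 and 61.A.11, and the first and the second of them are dim. Clone 61.A.11 had 10.73, 9.34, 11.04, 10.12 and 9.46 in the mutant over the 5 days, and 10.56, 9.94, 10.09, 11.21 and 9.42 in the wild type. The other members with the most positive change were 50.G.9, at 0.48 (SE 0.30), and 22.F.3, at 0.44 (SE 0.26).

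In the fit common to both genotypes, the change over the middle days depended on 190 days. The genotypes differed in course. The median step of the 95 members from 150 to 170 days was 0.49 in the mutant, against -0.38 in the wild type. From 170 to 190 days it was -0.998 in the mutant, against -0.27 in the wild type. Without 190 days 1 of 100 members was lower at an unadjusted p under 0.05 in limma, against 0.888% of all clones, and the median change was -0.03. Without 150 days the count was 8, against 0.598% of all clones, with a median of -1.15, in fits with fewer degrees of freedom. The fits without 190 or 150 days each cover 20 days, but their value is still a change per 40 days. Their medians are thus extrapolated from the measured step and larger than it. Without 170 days 1 member was lower at an adjusted p under 0.05 in limma, clone 2.B.12 (-2.51, adjusted p 0.0345), against 0.137% of all clones. The 1 member that was higher, against 0.137% of all clones, was 61.H.5, with missing signal. The fits that leave out a day carried no block for the shared arrays. Their p-values thus treat extracts on the same arrays as independent. A difference between the arrays of the days fitted is not in their error. In the fit over 150, 170 and 190 days the block had an estimated correlation of -0.39, which narrows the error of a change common to both genotypes. Without the block 21 members were lower at that unadjusted p, against 2.24% of all clones.

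**Figure D3:**
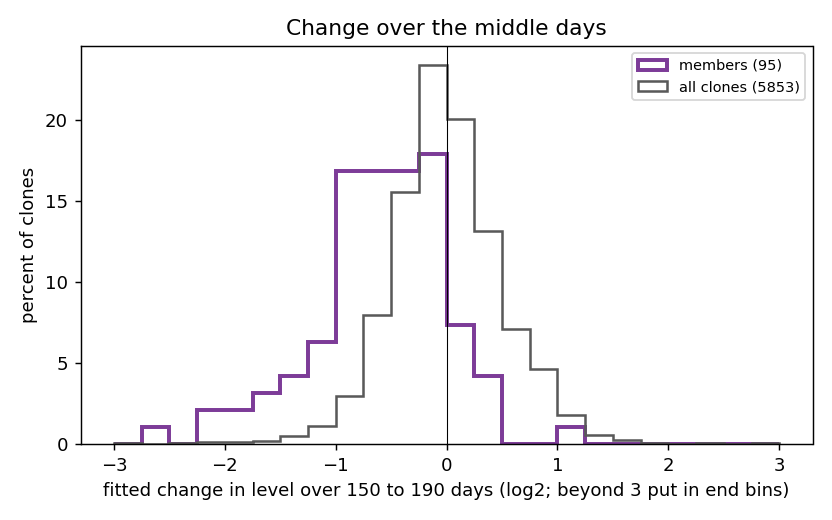
Percent of clones (vertical axis) by fitted change in log2 level over 150 to 190 days (horizontal axis), for the 95 members with signal and for all 5853 clones tested. The members are centred at -0.57 and all clones at -0.02.

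At single days the members tended to be lower in the mutant, within the 2-fold limit that the rule set. The median log2 ratio of mutant over wild type, from a loess within each array, was -0.40, -0.61, 0.13, -0.51 and -0.21 over the 5 days in the 95 members. Of all 100 members, 70, 90, 41, 92 and 73 had a ratio below 0 on these days. The dye-swapped arrays gave medians over the 100 members, in the order of the days, of -0.37, -0.51, 0.14, -0.42 and -0.08 on replicate 1, and of -0.43, -0.63, 0.08, -0.55 and -0.29 on replicate 2. The clones kept by the ratio filter had medians of 0.01, -0.01, 0.14, 0.02 and -0.16. The members thus lay below the kept clones at 120, 150 and 190 days and close to them at 170 and 220 days. In the authors' deposited table of lowess ratios, between 91 and 96 of the members have a value at a day, with median log2 ratios of -0.40, -0.52, 0.09, -0.42 and -0.19.

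**Figure D4:**
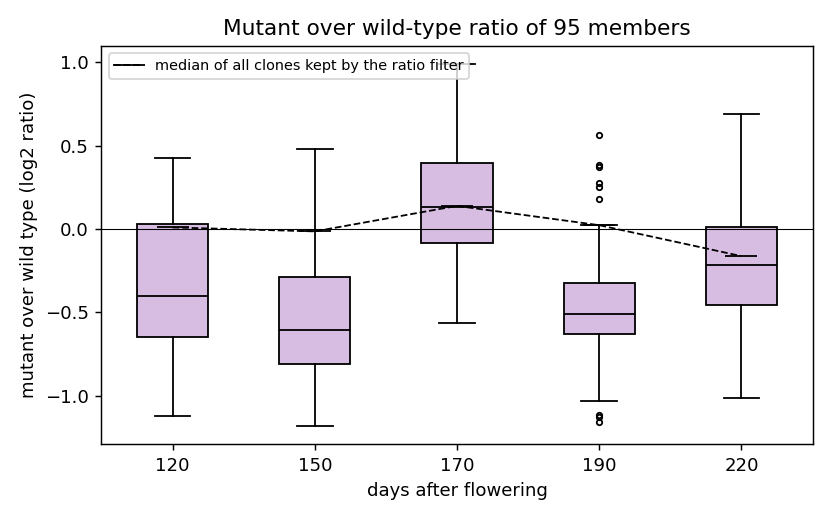
Log2 ratio of mutant over wild type (vertical axis) by days after flowering for the 95 members with signal. Boxes span the quartiles with the median as a line, whiskers reach 1.5 times the box height or the last value, and the dashed line joins the medians of all clones kept by the ratio filter; the members' medians are -0.40, -0.61, 0.13, -0.51 and -0.21.

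Some members had nearly the same ratio on every array. By single linkage at a correlation above 0.97 over the 10 arrays, 16 members fell into 7 groups. The largest held 47.A.9, 54.B.1, 54.A.2 and 59.A.8, whose falls lay between 1.16 and 1.48 in the mutant and between 1.60 and 2.24 in the wild type. Their mean ratio was -0.50, -0.87, -0.11, -1.03 and 0.33 over the 5 days. Clones 51.E.8 and 51.F.8, described above, formed a pair, as did 30.F.4 with 48.B.12. Members of a group are not independent of each other, and the files do not say whether they hold 1 transcript.

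The members were unevenly spread over the printed plates. Plates 30 to 61 supplied 77 of the 100, while they hold 52.5% of all clones and 54.1% of those kept by the ratio filter. Of the 95 members with signal 72 came from there. The levels of these plates as a whole were also lower at the last day: the median fall was 0.31 in the mutant, against 0.16 in the wild type on plates 30 to 61, and -0.01 and -0.23 on plates 1 to 29. With the levels of each plate group centred separately, 79 of the members were chosen again. With each of the 48 printing blocks centred, 62 were. All 100 kept a positive fall in both genotypes under either, which the choice of the clones by their fall favours. Over the middle days 25 members from plates 30 to 61 were lower at an unadjusted p under 0.05 in limma, against 5.31% of all clones there, and 12 from plates 1 to 29, against 4.92%. Without the dim members these counts were 23 and 12. Members lay on 42 of the 61 plates and in 33 of the 48 printing blocks, with 8 on plate 54 and 12 in block 45.

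The same rule with its sign turned gives 100 clones that were higher at 220 days in both genotypes. Their median fall was -1.13 in the mutant, against -1.33 in the wild type, and 56 of them came from plates 30 to 61. Over the middle days 25 of them were higher at an unadjusted p under 0.05 in limma, against 4.53% of all clones, and 5 lower, against 5.13%. At 190 days 54 were higher than at 150 days in both genotypes, against 31.7% of all clones. The median fitted change was 0.34. Their median ratio was 0.50 at 150 days, where that of the falling clones was below 0, and 0.12 at both 170 and 190 days. Differences between these sets were not tested.

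The fall is a fall relative to the typical clone, and its size in each genotype depends on the scale. With channels scaled to the same median, the median fall of the 100 members was 1.52 in the mutant, against 1.31 in the wild type, and 81 of the members were chosen again. With no scaling it was -0.0033 in the mutant, against 2.14 in the wild type, and 49 members had a positive fall in both. With levels set against 4 printed controls (Y1 to Y4), of which the intended amounts are not known, it was -0.84 in the mutant, against 2.96 in the wild type, and 7 members had a positive fall in both. The median of all clones moved by the same amounts, to -1.97 in the mutant, against 1.59 in the wild type with the controls. Relative to it the members' fall was 1.13 in the mutant, against 1.37 in the wild type under these 3 scalings. They differ only by a constant for each channel, so this distance is fixed in advance and is not a result.

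**Figure D5:**
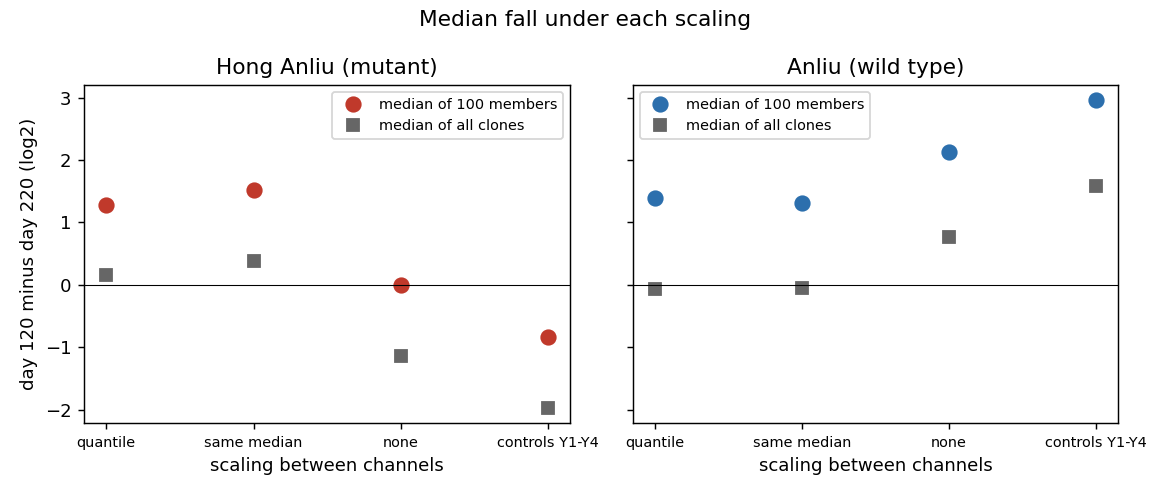
Median fall (log2 level at 120 days minus that at 220 days, vertical axis) of the 100 members and of all clones under 4 scalings between channels, the mutant on the left and the wild type on the right. The distance between members and all clones is 1.11 to 1.13 in the mutant and 1.37 to 1.47 in the wild type, while both move together from scaling to scaling. This distance cannot differ among the scalings other than quantile, since these differ only by a constant for each channel.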

How the data were processed

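Background-subtracted spot intensities in both dyes were deposited by the authors, per the file headers; scanner and subtraction: not given in the sources used here. Also, the authors deposited a linear ratio of mutant over wild type per spot, its log2 in a series table (largest difference 5.0e-05), and a table of lowess ratios per clone and day. Per the labels' protocols, total RNA was amplified and labelled with Klenow enzyme. Intensities at or below 0 were left out, and ratios were normalized by loess within each array with control spots at weight 0. Tests used limma 3.58.1 in R 4.3.3 with eBayes, two-sided, adjusted over all 5853 clones, with 3 residual degrees of freedom; no extract was imputed. The fit was tested on simulated data. The p-values measure the scatter of the 6 extracts around a common line. That scatter holds single collections, arrays, departures from a line and differences in course between the genotypes together. Alternatives changed the scaling, filters, block, arrays and days. Named clones were those of the highest smaller fall, the most extreme middle changes, the limit of the rule, the extreme mean levels and the largest genotype differences. A fit over all days is not reported, since its first and last days chose the members. Gene lists drawn up for carotenoid, photosynthesis, cell wall and sugar genes were not run, since no clone has a gene name. The members and lists were chosen with earlier results of these data known.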

Additional observations from a re-analysis of the deposited data

Results flagged for a closer look

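Between 150 and 170 days the median level of the 100 members went opposite ways in the genotypes on both arrays. The median step was 0.47 in the mutant, with 0.36 and 0.64 on replicates 1 and 2, and -0.38 in the wild type, with -0.53 and -0.40. In 33 members the mutant was higher and the wild type lower at 170 days on both arrays, and in 1 the reverse, against 16.6% and 4.23% of the clones kept by the ratio filter. The median step of the kept clones was 0.19 in the mutant, against -0.15 in the wild type. With the genotypes exchanged at 170 days, as considered above, 14 members went those opposite ways and 1 the reverse, without a share of the kept clones. The median steps were then 0.28 in the mutant, against -0.11 in the wild type. The difference between the genotypes was not tested.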

How the results depend on the processing

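Of the members, 0 were lower at an adjusted p under 0.05 in limma under every alternative but without 170 days, where 1 was lower (2.B.12) and 1 higher (61.H.5, without signal on 4 arrays). The fits that leave out a day have no block for the shared arrays. A trended, robust eBayes left each count over the middle days within 1.5 times. So did exchanging the genotypes at 170 days, but that day is the centre of the line and has no weight in its slope. The exchange thus cannot move a fitted change and acts only on its error. Members lower at an unadjusted p under 0.05 (37, against 5.13% of all clones) numbered 6 (0.427%) with the control spots, 17 (1.66%) unscaled, 23 of the 66 left (4.51%) with only clones above blank in all channels, 21 (2.24%) without the random block, 21 (2.55%) with 1 value per day, 8 (0.598%) without 150 days and 1 (0.888%) without 190 days; without 170 days 8.78% of all clones were. The median change was 0.086 with the control spots and -0.25 unscaled. It was -1.15 without 150 days and -0.033 without 190 days, values per 40 days extrapolated from fits over 20 days. With the control spots 39 members were negative, and without 190 days 52. The median of all clones was -0.02 in the quantile scale, 0.60 with the control spots and 0.26 unscaled. The control spots and no scaling shift all clones of a channel alike, so the members' distance below that median could not differ between them. All clones called numbered 1, against 0 with the blank filter, without spots lacking the authors' intensity class or without 190 days, 2 without 150 days and 16 without 170 days. On the 12 channels, the replicate block gave 21 members (2.1% of all clones) and 0 clones called, and the fit without it 19 (2.24%) and 0; the repeat numbers mark dye orientation, and their deviations correlated at -0.31 to 0.27 over 20 pairs of days, so they do not pair the days. Leaving out replicate 1 or 2 gave 0 to 1 members called higher (57.F.3, dim), 0 to 2 clones called, 26 to 37 members and 3.18% to 5.64% of clones lower at the unadjusted p, a wild-type median fall of 1.36 to 1.54, 60 to 66 members chosen again and a smaller fall at rank 100 of 1.08 to 1.12. The median fall was 1.52 in the mutant at equal medians, -0.84 in the mutant, against 2.96 in the wild type with the controls, -0.0033 in the mutant, against 2.14 in the wild type unscaled, 1.22 in the mutant with plate groups centred, and 1.21 in the mutant, against 1.20 in the wild type with blocks centred. Members chosen again numbered 14 with the controls (7 with a fall in both, rank 100 at -0.36), 14 unscaled (49, rank 100 at 0.47), 42 with no clone dropped for its ratio (rank 100 at 1.23) and 62 with blocks centred. The plate, block and dim-member alternatives, and the exchange at 170 days for the steps, were chosen after seeing the data.

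Among named clones the sign of the middle change turned for 15.G.11 (0.052), 29.F.2 (0.025), 54.C.1 (0.027), 59.A.8 (0.55) and 28.G.9 (0.25) with the controls and for 59.A.8 unscaled (0.22), scalings that move the values of all clones together, and for 50.G.9 without spots lacking that class (-0.10). Without 150 days it turned for 43.A.4 (-0.55), 50.G.9 (-0.33) and 51.A.4 (-1.003), and without 190 days for 54.C.1 (1.14), 59.A.8 (1.26) and 28.E.1 (0.31). These values without a day are changes per 40 days, extrapolated from 20 days. With replicate 1 or 2 left out the middle change lay between -0.20 and 0.39 for 43.A.4, -0.66 and 1.54 for 22.F.3 and -0.43 and 0.13 for 59.A.8. None of these had passed in the 6 extracts, and the cause was not tested.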
